A study of Mus musculus with 6 samples.

Results

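Osteocalcin and the genes of the matrix Gla pathway were followed in 6 RNA-seq libraries of mouse bone and cultured osteoblasts. The set lists 6 genes, *Bglap2*, *Bglap3*, *Mgp*, *Gas6*, *Ggcx* and *Vkorc1*, and members were found where a named row of the deposited tables carried the gene's name. Of the 48733 named genes, 4 were members (*Bglap2*, *Mgp*, *Gas6* and *Ggcx*). No row carried the names *Bglap3* or *Vkorc1*, so their positions were searched by coordinates and what was found there is given with its limits.

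All mice were of CC016/GeniUnc, an inbred strain of the Collaborative Cross, and the labels give no age. The 3 libraries labelled bone came from cortical bone of the femur after the marrow was removed. The 3 labelled osteoblasts came from marrow cells grown on plastic and then kept for 8 days in medium with ascorbic acid (50 µg/ml), beta-glycerophosphate (at 10 mM) and dexamethasone (at 10 nM), which drives stromal cells to form mineralizing osteoblasts. The study's methods name 3 mice for the 6 libraries, and no label ties a replicate number to a mouse.

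Osteocalcin is a small protein that osteoblasts and osteocytes secrete into bone, and it is a standard marker of late osteoblast differentiation. Mouse carries it as a cluster of near-identical genes, *Bglap* and *Bglap2*, with the more distant copy *Bglap3*. Like matrix Gla protein (*Mgp*), an inhibitor of mineralization in cartilage and arteries, and *Gas6*, a ligand of the TAM receptor kinases, it carries glutamate residues that are carboxylated to Gla, which binds calcium. That step is made by the gamma-glutamyl carboxylase (*Ggcx*) with reduced vitamin K, which the epoxide reductase (*Vkorc1*) regenerates.

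The coding sequences of *Bglap2* and *Bglap* are shown because their likeness limits what short reads can assign to each. They were read from GENCODE vM1 on NCBIM37. Each has 288 bases, and capitals mark the bases that differ from *Bglap2*.
Bglap2: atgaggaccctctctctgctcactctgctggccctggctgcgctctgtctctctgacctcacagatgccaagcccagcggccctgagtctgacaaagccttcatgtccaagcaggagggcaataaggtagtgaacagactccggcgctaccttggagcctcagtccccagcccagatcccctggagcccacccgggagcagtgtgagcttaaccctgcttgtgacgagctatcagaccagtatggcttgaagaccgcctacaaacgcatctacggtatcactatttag
Bglap: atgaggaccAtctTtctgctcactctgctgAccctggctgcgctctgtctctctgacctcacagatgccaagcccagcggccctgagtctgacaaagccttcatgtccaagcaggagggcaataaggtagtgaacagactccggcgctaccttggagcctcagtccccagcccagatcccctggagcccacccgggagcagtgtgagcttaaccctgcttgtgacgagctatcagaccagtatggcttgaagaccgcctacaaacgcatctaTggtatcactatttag

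*Bglap* differed from *Bglap2* at 4 of the 288 coding bases (98.6% identity). The study sequenced paired reads of 75 bases. Of the 397 stretches of 75 bases in the *Bglap2* transcript, 242 (61.0%) also occurred unchanged in *Bglap*. A single read from most places in the *Bglap2* transcript could therefore not be told from *Bglap* by its letters. What the other read of a pair adds was not counted. These are reference sequences, and the alleles of CC016/GeniUnc were not read.

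The deposited features met the osteocalcin genes differently. On GRCm38, the row named *Bglap2* lies on the minus strand at chr3:88377736-88384464. It held all of RefSeq *Bglap2* (chr3:88377736-88378701) and 99.8% of RefSeq *Bglap* (chr3:88383495-88384466), which has no named row. Its value is thus that of *Bglap2* and *Bglap* together, called the osteocalcin row here. A feature without a name at chr3:88368588-88372743, on the same strand, held all of RefSeq *Bglap3* (chr3:88368616-88372741). *Vkorc1* (chr7:127893063-127895658) lay for 98.4% of its length in the row named *Prss53* (chr7:127885841-127895617, minus strand), which also held 94.7% of the neighbouring protease gene *Prss53*, and the share of each gene in that row cannot be told apart.

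**Figure D1:**
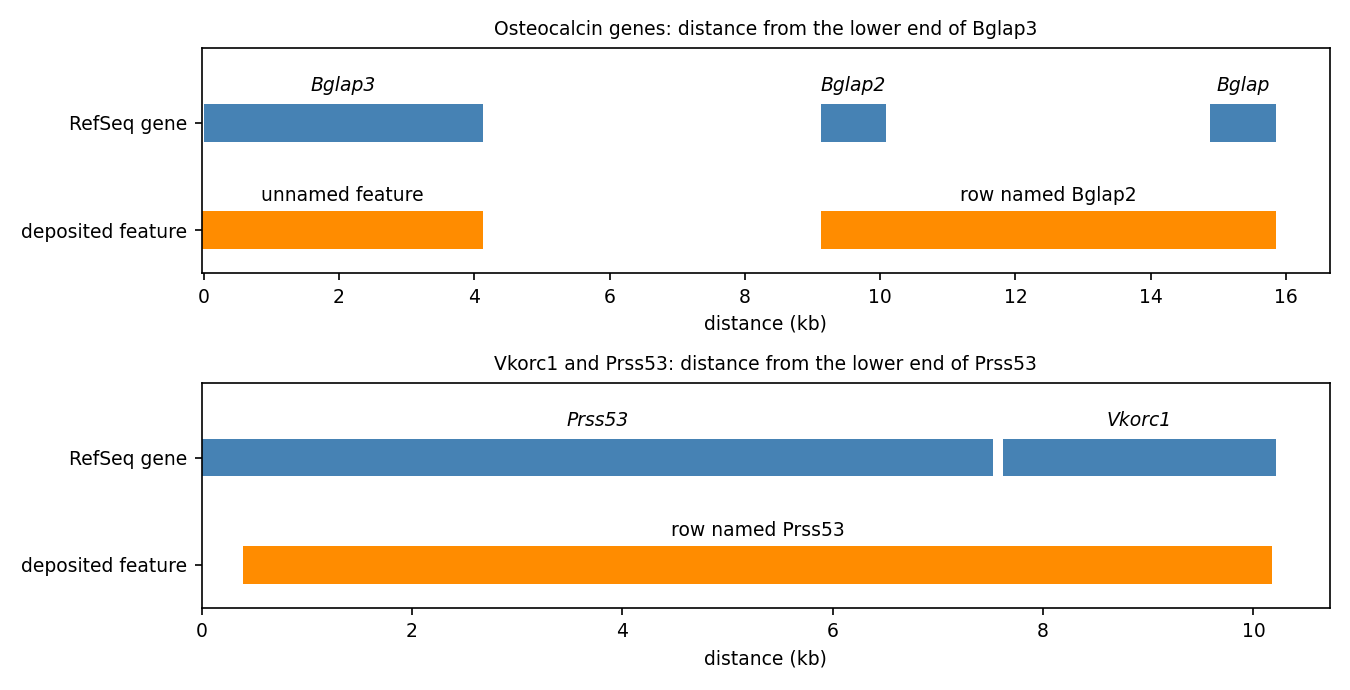
Positions of RefSeq genes (blue) and of the deposited features that cover them (orange), with the distance in kb from the lower end of *Bglap3* (top) and of *Prss53* (bottom) on the x axis. The row named *Bglap2* runs across *Bglap2* and *Bglap*, and the row named *Prss53* runs across *Prss53* and *Vkorc1*.

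The remaining members had rows of their own. *Mgp* matched its RefSeq gene exactly (chr6:136872435-136875823, minus strand) and *Gas6* covered 99.8% of its gene (chr8:13465374-13494490, minus strand). *Ggcx* (chr6:72414308-72430712, plus strand) covered 86.0% of its RefSeq gene, with a feature without a name at chr6:72430773-72432749 inside the rest. Opposite-strand rows overlapped the RefSeq genes of *Gas6* (*Tmem255b*, 10.6% of the gene, at most 0.965 FPKM) and *Ggcx* (*Mat2a*, 2.94%), and the kit named in the labels does not mark strand.

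The values are FPKM, read pairs per kilobase of transcript scaled to the reads aligned in the library, which take out length and depth. The coverage columns implied 2.03 to 3.39 Gb of aligned bases in a library, so that 3 pairs on a transcript of 1 kb would give 0.133 to 0.221 FPKM. Labels and library makeup did not run together. *Hbb-bt*, a beta-globin gene of red cells, was above 1000 FPKM in bone replicate 3 and osteoblasts replicates 2 and 3 (34838, 34268 and 48650). In the other libraries, bone replicates 1 and 2 with osteoblasts replicate 1, it was 7.05, 3.58 and 3.43 FPKM. Over the 12112 genes tested, Spearman's rho was 0.94 to 0.97 between libraries on the same side of that mark and 0.60 to 0.66 between libraries on opposite sides. Bone replicate 3 was thus closer to osteoblasts replicates 2 and 3, and osteoblasts replicate 1 closer to bone replicates 1 and 2, than either was to its own label. The labels of these 2 libraries may not match their material, which was not tested, and every mean of a label and every difference between labels below rests on them. Libraries are named by their deposited labels throughout. The 3 libraries above the mark are called globin-high here, as a description of libraries and not as a group of the study. Features without a name took 71.5% of the FPKM of bone replicate 2 and 65.0% of that of osteoblasts replicate 1, against 27.4% to 30.7% in the others. In tissue and culture samples of this kind, fewer cells of a type and less RNA per cell cannot be told apart.

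By FPKM, the osteocalcin row stood among the highest named genes of every library. The osteocalcin row had 264, 383 and 1959 FPKM in bone replicates 1, 2 and 3, and 513, 1889 and 1641 FPKM in osteoblasts replicates 1, 2 and 3. The 3 globin-high libraries had the highest values and both labels held low and high libraries, so that the labels overlapped. The place of the osteocalcin row among the named genes ran from 138th in bone replicate 1 to 39th in osteoblasts replicate 2, counted from the top. Places were not ranked from the coverage columns, and features without a name were not counted. Bone averaged 869 ± 946 FPKM (SD, n = 3) and osteoblasts 1347 ± 733 FPKM (SD, n = 3). On the log2(FPKM + 1) scale osteoblasts minus bone was 1.00 (SE 0.92, 95% interval -1.07 to 3.07, limma adjusted p = 0.999), with p = 0.4 in the two-sided exact permutation test. The difference was smaller than the spread within a label. It was 1.87 without bone replicate 3 and 1.59 without osteoblasts replicate 1, the libraries whose *Hbb-bt* level was unlike that of the rest of their label. Without bone replicate 1 it was 0.43, and it passed the threshold in none of these fits.

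*Bglap3*, the distant copy, gave far lower values in the feature at its position. That feature had 3.57, 0 and 40.5 FPKM in bone replicates 1 to 3, where 0 is the listed value, and 7.67, 9.12 and 29.8 FPKM in osteoblasts replicates 1 to 3. Bone replicate 3 and osteoblasts replicate 3 stood highest, while osteoblasts replicate 2, also globin-high, was close to osteoblasts replicate 1. The labels overlapped, and the exact permutation test gave p = 0.5 for a difference of 1.28 on the log2(FPKM + 1) scale. The osteocalcin row was 48.4 to 207 times as high as this feature in the 5 libraries where the feature was above 0. How reads shared between the copies were divided between the rows was not tested.

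*Mgp* ran the other way across the libraries. Its FPKM was 765, 307 and 106 in bone replicates 1 to 3 and 281, 107 and 108 in osteoblasts replicates 1 to 3. The 3 globin-high libraries lay between 106 and 108 FPKM at the low end, and bone replicate 1 stood highest. Bone averaged 393 ± 338 FPKM and osteoblasts 165 ± 100 FPKM (SD, n = 3 each). On the log2 scale the labels differed by -0.98 (SE 0.81, 95% interval -2.80 to 0.85, limma adjusted p = 0.999, exact permutation p = 0.4). The difference was -1.70 without bone replicate 3, -1.44 without osteoblasts replicate 1 and -0.28 without bone replicate 1.

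*Gas6*, the TAM receptor ligand, was ordered across the libraries much as *Mgp*. It had 532, 242 and 64.0 FPKM in bone replicates 1 to 3 and 359, 64.9 and 72.6 FPKM in osteoblasts replicates 1 to 3. Again the globin-high libraries were the lowest and the labels overlapped. The means were 279 ± 236 FPKM in bone and 166 ± 168 FPKM in osteoblasts (SD, n = 3 each). The log2 difference of -0.76 (SE 0.93, 95% interval -2.87 to 1.36) had a limma adjusted p of 0.999 and an exact permutation p of 0.7. Without bone replicate 1 it was close to 0 (-0.06), and without bone replicate 3 it was -1.58.

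*Ggcx*, the carboxylase that acts on all of these proteins, was expressed below the other named members and varied less between libraries than they did. Its FPKM was 23.6, 12.6 and 9.96 in bone replicates 1 to 3 and 13.6, 9.24 and 7.44 in osteoblasts replicates 1 to 3. The highest library was 3.17 times the lowest, against 7.42 times for the osteocalcin row, 7.19 times for *Mgp* and 8.31 times for *Gas6*. Bone averaged 15.4 ± 7.22 FPKM and osteoblasts 10.1 ± 3.16 FPKM (SD, n = 3 each), and the labels overlapped. The log2 difference was -0.51 (SE 0.48, 95% interval -1.61 to 0.58, limma adjusted p = 0.999, exact permutation p = 0.4).

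For the reductase *Vkorc1* only the *Prss53* row could be read. Across bone replicates 1 to 3 it had 38.3, 22.9 and 16.1 FPKM, and across osteoblasts replicates 1 to 3 it had 31.0, 14.4 and 14.9 FPKM. The globin-high libraries were again the lowest. The labels overlapped and differed by -0.35 on the log2 scale (SE 0.53, limma adjusted p = 0.999, exact permutation p = 0.5). How much of this was *Vkorc1* and how much *Prss53* cannot be told apart. The opposite-strand row *Zfp646* overlapped 50.9% of the RefSeq gene *Prss53* and had 2.77 to 9.20 FPKM. Its part in the *Prss53* row was not tested.

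**Figure D2:**
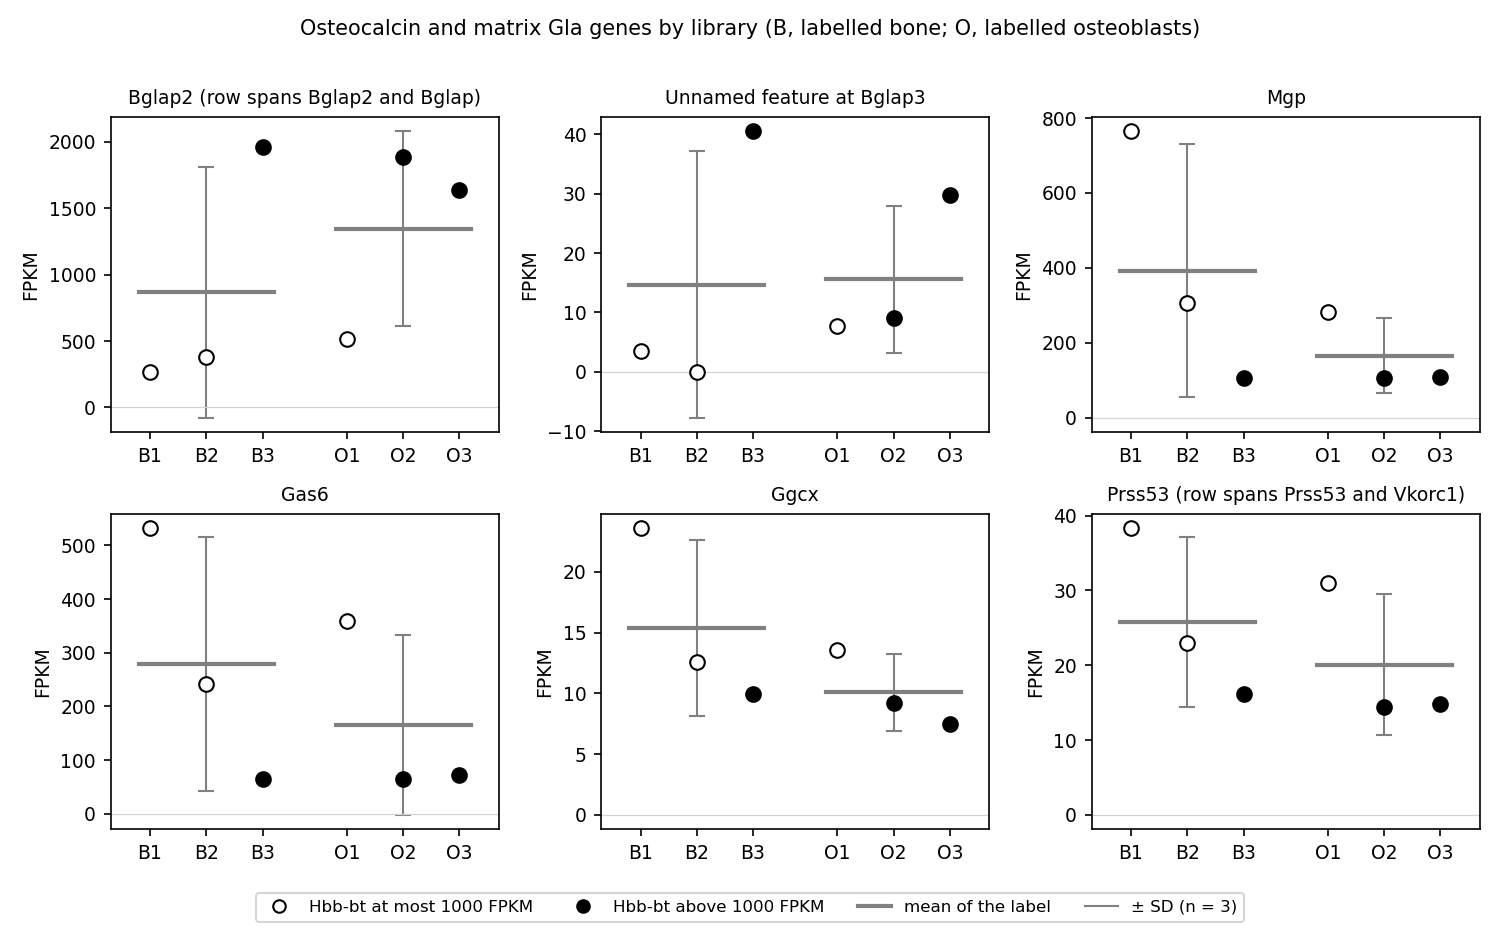
FPKM (y axis) of the rows at the 6 genes in each library (x axis; B1 to B3 labelled bone, O1 to O3 labelled osteoblasts), with filled points for *Hbb-bt* above 1000 FPKM, grey lines for the mean of each label and thin bars for its SD (n = 3). Filled points lie at the top for *Bglap2* and at the bottom for *Mgp*, *Gas6*, *Ggcx* and *Prss53*, under both labels.

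No member changed between the labels by the test across all genes. By limma with an adjusted p under 0.05, 0 of the 4 named members passed, and 0 of all 12112 genes (0.0%), of which 17 had an unadjusted p under 0.05. The exact permutation tests of the 6 rows, adjusted over the 6, gave 0.6 for each but *Gas6* (0.7), and 3 libraries against 3 cannot give a p below 0.1. These p-values measure the spread between these libraries. All 4 intervals above include 0 and that of osteocalcin reaches 3.07 on the log2 scale, so the labels are not shown to be alike either.

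Ratios within a library do not depend on how the library was scaled. The ratio of the osteocalcin row to *Mgp* was 0.345, 1.25 and 18.4 in bone replicates 1 to 3 and 1.82, 17.7 and 15.2 in osteoblasts replicates 1 to 3. It thus spanned 53.3-fold, with 3 libraries between 15.2 and 18.4 and 3 at 1.82 or less, and each label held libraries of both kinds. The labels differed by 1.98 in log2 ratio (exact permutation p = 0.4). Of the 2 other ratios planned, to *Bglap3* and of *Ggcx* to *Vkorc1*, neither could be formed from named rows. With those chosen after seeing the data 8 ratios were tested, and their p adjusted over the 8 was 0.8 for each.

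Set against type I collagen, the main protein of bone matrix, osteocalcin still differed between libraries. The ratio of the osteocalcin row to *Col1a1* was 0.0974, 0.230 and 0.877 in bone replicates 1 to 3 and 0.154, 1.26 and 0.924 in osteoblasts replicates 1 to 3 (exact permutation p = 0.5). *Col1a1* itself was between 1499 and 3332 FPKM in every library. *Mgp* and *Gas6* kept a steadier proportion, with ratios of 1.44, 1.27 and 1.66 in bone and 0.784, 1.64 and 1.49 in osteoblasts (exact permutation p = 0.8). *Ggcx* to the *Prss53* row was between 0.439 and 0.643 in the 6 libraries (exact permutation p = 0.4).

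**Figure D3:**
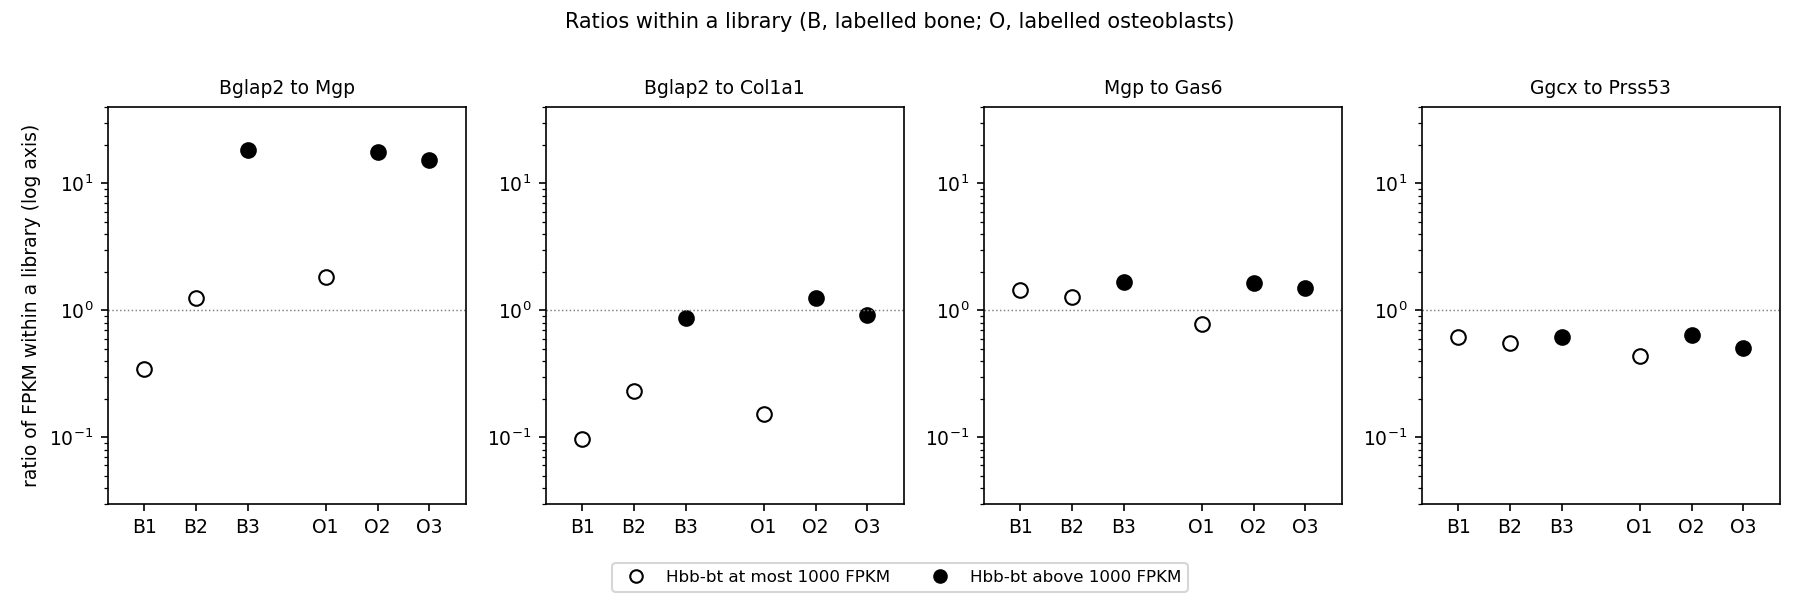
Ratio of FPKM within each library (y axis, log scale) for 4 pairs of rows, by library (x axis; B1 to B3 labelled bone, O1 to O3 labelled osteoblasts), with filled points for *Hbb-bt* above 1000 FPKM and a dotted line at 1. The ratio of *Bglap2* to *Mgp* runs from 0.345 to 18.4, while *Mgp* to *Gas6* stays between 0.784 and 1.66.

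The order of the members within a library depended on the deposited column. In bone replicate 1 the FPKM of *Mgp* (765) was above that of *Gas6* (532) and of the osteocalcin row (264). Read from the coverage column on the same scale, the values were 398 for *Mgp*, 519 for *Gas6* and 83.7 for the osteocalcin row. The FPKM of a row was 3.03 to 3.19 times its coverage on that scale for the osteocalcin row, 1.92 times for *Mgp* and 1.02 to 1.03 times for *Gas6*. These factors were nearly the same in every library, so comparisons of a gene between libraries are little touched by them. The osteocalcin row came above *Mgp* and *Gas6* in the globin-high libraries on both scales (615 against 55.5 and 62.5 in bone replicate 3 from coverage).

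The genes whose levels followed each member most closely were sought among 7110 genes with a mean of at least 5 FPKM, by Pearson's r of log2(FPKM + 1) over the 6 libraries. For the osteocalcin row they were the histone gene *Hist3h2a* (r = 0.998), the carboxypeptidase gene *Cpz* (r = 0.995) and *Gm19658* (r = 0.980). Those of *Mgp* were *Arhgap24* (r = 0.998), *Sec23a* (r = 0.997) and *Kdelr2* (r = 0.996), the last a pair of genes of the secretory pathway. *Gas6* was followed by *Parva* (r = 0.999), *Cyp26b1* (r = 0.999) and *Grb14* (r = 0.999), and *Ggcx* by *Rab34*, *Epdr1* and *Pald1* (r = 0.993 each). The osteocalcin row had r of -0.968 with *Mgp* and -0.972 with *Gas6*. These r values describe 6 libraries that fall apart as above, and many genes share that split: at r = 0.962 *Gas6* was 407th in the order of likeness to *Mgp*.

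Markers of several other cell types moved with the members across libraries. Those of adipocytes and stroma (4 of 5 with named rows) did not, with sums of 198, 33.3 and 72.9 FPKM in bone and 147, 90.2 and 94.0 FPKM in osteoblasts. The 6 macrophage markers, all with named rows and none at 0, summed to 2762 and 1397 FPKM in bone replicates 1 and 2, to 1580 FPKM in osteoblasts replicate 1 and to 403 to 533 FPKM in the globin-high libraries, where *Mgp* and *Gas6* were lowest. The smooth muscle and pericyte markers (4 of 5 with named rows) summed to 195 to 507 FPKM in the former and to 16.6 to 22.4 FPKM in the latter. *Acta2*, *Tagln* and *Cnn1* carried that sum, while the pericyte marker *Rgs5* did not share the split (9.81, 2.49 and 4.84 FPKM in bone and 2.59, 5.90 and 5.60 FPKM in osteoblasts). The 6 neutrophil markers summed to 0.320 to 5.45 FPKM in the libraries with less osteocalcin and to 13395 to 16099 FPKM in those with more, and *Elane* was listed at 0 in each of the former. Skeletal muscle markers (3 of 5 with named rows) summed to 0.0324 to 1.09 FPKM where osteocalcin was lower and to 221 to 943 FPKM where it was higher, with *Tnnt3* listed at 0 in each of the former. The 5 endothelial markers summed to 0.273 to 5.04 FPKM and to 33.5 to 47.1 FPKM in the same libraries. Chondrocytes, which also express *Mgp*, were marked by 4 named genes that summed to 3.07 to 12.7 FPKM where *Mgp* was high and to 164 to 310 FPKM where it was low, with *Col9a1* and *Matn1* listed at 0 in each library of high *Mgp*. Bone markers were present under both labels, and *Ibsp*, which encodes bone sialoprotein, had 1278, 986 and 43.1 FPKM in bone and 1004, 78.2 and 91.3 FPKM in osteoblasts, the reverse of osteocalcin. The osteocyte marker *Sost* ran with osteocalcin (0.176, 0.0661 and 18.8 FPKM in bone, 0.198, 22.7 and 15.8 FPKM in osteoblasts). *Dmp1*, another osteocyte marker, ran the other way (104, 50.0 and 24.2 FPKM in bone, 127, 22.5 and 22.9 FPKM in osteoblasts). *Sparc* (989 to 1680 FPKM) and *Phex* (4.61 to 8.19 FPKM) did not separate the globin-high libraries from the others. The part of these cell types in the levels of the members was not tested.

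The vitamin K cycle and the enzymes around carboxylation were followed with a list of 10 genes, of which 9 had named rows and 0 passed the test. The median log2 difference of the 9 was -0.14, against 0.12 over all genes tested. *P4hb*, the disulfide isomerase of the endoplasmic reticulum, led with 267, 132 and 112 FPKM in bone and 163, 114 and 106 FPKM in osteoblasts. *Calu*, which encodes calumenin, an inhibitor of carboxylation, had 198, 113 and 18.0 FPKM in bone and 101, 27.6 and 27.1 FPKM in osteoblasts. It was thus low in the globin-high libraries, as *Mgp* and *Gas6* were. *Txndc5* (31.4 to 63.0 FPKM) and *Pdia3* (16.1 to 77.3 FPKM), which encode further disulfide isomerases, also overlapped between the labels.

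*Vkorc1l1*, the paralogue of *Vkorc1*, was the only gene of that list whose labels did not overlap. It lies outside the genes chosen by level and was named after its values were seen. It had 3.33, 2.26 and 2.55 FPKM in bone and 3.67, 5.15 and 5.90 FPKM in osteoblasts. Over all 12112 genes, 0.479% (58) had every osteoblasts library above every bone library and another 0.438% (53) had every osteoblasts library below, and *Vkorc1l1* did not pass limma. On TPM and after scaling to the sum of named genes its labels overlapped, and after scaling to the 75th percentile they did not.

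Of 14 genes listed as encoding other known or proposed Gla proteins, 13 had named rows, 6 were tested and 0 passed, with a median log2 difference of -0.05. *Postn*, the gene for periostin, a matrix protein whose carboxylation is disputed, had 290, 342 and 20.2 FPKM in bone and 141, 21.0 and 16.7 FPKM in osteoblasts. *Pros1*, the gene for protein S and, like *Gas6*, a TAM ligand, had 35.5, 16.6 and 4.28 FPKM in bone and 15.7, 7.76 and 8.36 FPKM in osteoblasts. Both were lowest in the globin-high libraries. *Tgfbi* was between 22.9 and 44.0 FPKM throughout. *F10*, the gene for coagulation factor X, had 0.101, 0 and 12.3 FPKM in bone and 0, 15.6 and 15.2 FPKM in osteoblasts. It was the only gene of the list called when osteoblasts replicate 1 was left out, a fit that called 300 of all 12112 genes. *Prrg2* was between 3.28 and 6.40 FPKM. Outside the genes chosen by level, *Ucma*, a Gla protein of cartilage, was named after its values were seen. It had 5.59 to 7.58 FPKM in the globin-high libraries and was listed at 0 in the others.

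Receptors and partners of the members were described by the same test, and 0 of the 7 tested genes passed. *Axl*, a *Gas6* receptor, had 45.2, 23.4 and 70.4 FPKM in bone and 30.8, 64.0 and 65.3 FPKM in osteoblasts, so that it was highest in the libraries where its ligand was lowest. *Tyro3*, the other *Gas6* receptor with a named row, ran with *Gas6* instead. It was at 0.853 to 1.52 FPKM in the globin-high libraries and at 2.35 to 3.10 FPKM in the others. *Mertk* had no named row. The proposed osteocalcin receptor genes *Gprc6a* and *Gpr158* were listed at 0 in all 6 libraries. *Bmp2* and *Bmp4*, whose proteins Mgp binds, were at 5.53 to 10.5 and 3.65 to 15.6 FPKM in bone replicates 1 and 2, and at 11.0 and 11.8 FPKM in osteoblasts replicate 1. In the globin-high libraries they were at 0.980 to 1.93 and 2.93 to 3.38 FPKM. *Bmp7*, the other BMP of the list and too low on average to be tested, ran the other way. It was at 1.12 to 2.04 FPKM in the globin-high libraries and at 0.0280 to 0.250 FPKM in the others. *Furin*, a protease that removes propeptides, was between 17.5 and 32.0 FPKM in all libraries.

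Of 7 regulators of osteocalcin transcription 6 were tested, 0 passed, and the median log2 difference was 0.24. *Atf4*, a leucine zipper factor that activates osteocalcin, had 60.7, 29.7 and 66.1 FPKM in bone and 52.5, 63.4 and 64.2 FPKM in osteoblasts. *Sp7* (osterix) had 38.7, 19.8 and 21.3 FPKM in bone and 32.1, 15.6 and 12.5 FPKM in osteoblasts. *Runx2*, the master factor of the osteoblast lineage, had 10.9, 5.78 and 10.8 FPKM in bone and 9.47, 15.1 and 11.8 FPKM in osteoblasts. *Nr3c1*, the glucocorticoid receptor gene, and *Vdr*, the vitamin D receptor gene, were between 6.03 and 16.3 FPKM and between 4.30 and 9.58 FPKM. Of these 5 genes *Atf4* alone had its 3 highest values in the globin-high libraries, by a margin of 63.4 over 60.7 FPKM.

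**Figure D4:**
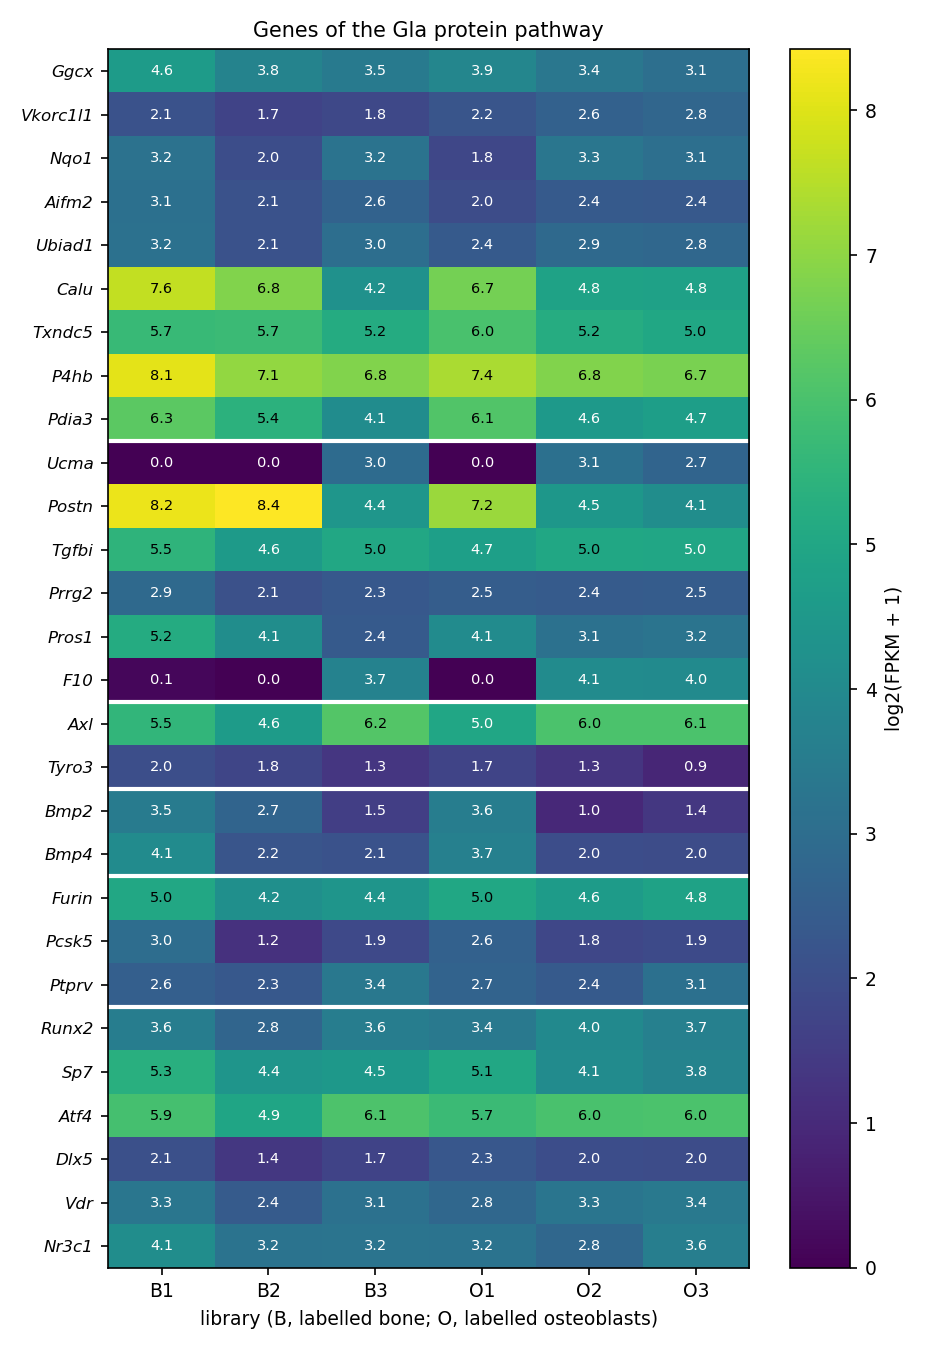
Level of each tested pathway gene (rows) in each library (columns; B1 to B3 labelled bone, O1 to O3 labelled osteoblasts), as log2(FPKM + 1), with white lines between the lists: carboxylation, other Gla proteins, *Gas6* receptors, BMPs, propeptide cleavage with *Ptprv*, and transcription factors. *Calu*, *Postn*, *Pros1*, *Bmp2* and *Bmp4* are lower in B3, O2 and O3 than in B1, B2 and O1, and *Axl*, *F10* and *Ucma* are higher there.

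Runt factors such as Runx2 bind the letters ACCACA or the longer AACCACA, and the promoter of *Bglap* is shown because its transcript is part of the osteocalcin row. It comes from RefSeq on GRCm38.p6 (chr3:88384417-88384716, minus strand) and runs from 250 bases before the start of the gene to 50 after it, with ACCACA in capitals.
Bglap promoter: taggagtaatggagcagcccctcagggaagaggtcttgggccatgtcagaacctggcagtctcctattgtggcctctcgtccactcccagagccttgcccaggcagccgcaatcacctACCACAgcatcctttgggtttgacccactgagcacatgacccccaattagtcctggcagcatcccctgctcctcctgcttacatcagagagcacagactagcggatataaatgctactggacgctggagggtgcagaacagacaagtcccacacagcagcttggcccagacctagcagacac

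On both strands this window held 1 ACCACA, 0 AACCACA and 1 CANNTG, the letters bound by basic helix-loop-helix factors. Of 32851 RefSeq promoters of this length, 16.8% held ACCACA, 5.27% AACCACA and 72.3% CANNTG. None of the promoters found for *Bglap3*, *Gas6*, *Ggcx* and *Vkorc1* held ACCACA. The promoter sequences used had none for *Bglap2* and *Mgp*, so these members were not searched. A match describes letters in this window only.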

How the data were processed

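RNA-seq libraries of bone and BMSC-derived osteoblasts from CC016/GeniUnc mice (n = 3 each) were used. The authors aligned paired 75 bp reads to GRCm38 with HISAT2 2.0.5 and estimated expression with StringTie 1.3.3, and the submitters' processing notes also name SAMtools 1.7. The authors deposited 3 columns of values for each feature, namely coverage (mean reads per base), FPKM (scaled to all aligned reads) and TPM (rescaled to a fixed sum per library), without read counts.

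FPKM of rows that share a name were summed. *Bglap3*, *Bglap* and *Vkorc1* were located with RefSeq coordinates on GRCm38.p6, the build of the files. Coverage was also divided by the coverage that 1 FPKM most often equalled in that library. Genes with a mean of at least 1 FPKM (12112) were compared as log2(FPKM + 1), osteoblasts minus bone, with limma 3.58.1 in R 4.3.3 (eBayes with a trend, Benjamini-Hochberg adjustment, threshold 0.05), after a test on simulated data. Single values and ratios were compared with exact permutation tests. No test was run on libraries split by *Hbb-bt*. Promoters were searched for letters on both strands. Python 3.11.15 with pandas 2.3.3, numpy 2.4.6, scipy 1.17.1 and matplotlib 3.10.9 was used. Groups follow the deposited labels, although bone replicate 3 and osteoblasts replicate 1 were each less like their own label than the other and may not be the labelled material. No library was moved.

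The genes named are the 6 members and the genes at their loci, of each pathway list at most 5 genes with the highest mean FPKM, and for each member the 3 genes with the highest r among those with a mean of at least 5 FPKM. A gene of the regulator list and a coding sequence are not reported here. *Col1a1*, *Ucma* and *Vkorc1l1* were added to the genes named after seeing the data, and marker genes come from lists of cell types. The members and lists were chosen with earlier results of these data known. The alternatives were pseudocounts of 0.1 and 0.01, other filters on low values, TPM, other scalings, no trend in limma, a replicate block and leaving out each library. The coverage scale, leaving out a pair of libraries and the ratios to rows other than *Mgp* were added after seeing the data.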

Additional observations from a re-analysis of the deposited data

Results flagged for a closer look

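Signal was found in features without a name, which the tests across named genes do not use. The feature at *Bglap3* (chr3:88368588-88372743) reached 40.5 FPKM in bone replicate 3 and was above the level that 3 read pairs on 1 kb would give in 5 of 6 libraries. The feature inside the RefSeq gene *Ggcx* (chr6:72430773-72432749) was above that level in 6 of 6 libraries, with 4.90, 3.34 and 1.23 FPKM in bone and 2.18, 1.84 and 2.16 FPKM in osteoblasts. Its value is not part of the *Ggcx* levels given above. Whether it belongs to the *Ggcx* transcript was not tested. Groups of 3 libraries were not searched for outlying values.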

How the results depend on the processing

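The deposited FPKM allow no counting intervals, and 3 libraries a label leave wide intervals for every member. The sign of the difference between the labels was kept by *Bglap2*, *Mgp*, *Ggcx* and *Gas6* in all 18 alternatives run for each, and none passed the threshold in any limma fit. Other filters on low values, no trend and the replicate block leave the difference of a gene unchanged, so they could not alter its sign. Leaving out each library gave log2 differences of 0.43 to 1.87 for *Bglap2*, -1.70 to -0.28 for *Mgp*, -0.76 to -0.18 for *Ggcx* and -1.58 to -0.06 for *Gas6*. The log2 ratio of *Bglap2* to *Mgp* differed by 0.72 to 3.59 in those fits and by 1.98 to 2.70 in the other alternatives. Among these, TPM cannot change a ratio within a library and so was no check of it. Scaling to the sum of named genes moved the median log2 difference of all genes from 0.12 to -0.03, and on that scale *Bglap2* differed by 0.81 and *Mgp* by -1.17.

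The number of genes called was 0 under most alternatives and between 0 and 300 when each library was left out. It was 77 without bone replicate 3 and 300 without osteoblasts replicate 1. With the replicate block 49 genes were called, 46 higher and 3 lower in osteoblasts, none of them a member. Deviations of same-numbered libraries had correlations of 0.84, -0.75 and 0.83. Differently numbered libraries on the same side of the *Hbb-bt* mark gave similar values. These were 0.80 for bone replicate 2 with osteoblasts replicate 1 and 0.83 for bone replicate 3 with osteoblasts replicate 2. Pairs on opposite sides gave -0.91 to -0.72. The sign thus followed the *Hbb-bt* split, so these values do not decide which libraries share a mouse. As no label ties a number to a mouse, the main test did not pair them. Planned ratios to *Bglap3* and *Vkorc1* could not be formed, since no row carries these names.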
